A study of Homo sapiens with 12 samples.

Results

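The genes described here are small nucleolar RNA (snoRNA) and small Cajal body RNA (scaRNA) genes that collected fragments in polyA RNA libraries of 293T cells. They were chosen by name and by abundance: of 60645 gene names in the count tables, 472 begin with SNORA, SNORD or SCARNA and a number, 187 of those had at least 1 count, and 80 had a total of at least 60 counts over the 12 libraries. The 80 members comprise 35 SNORD genes (C/D class), 38 SNORA genes (H/ACA class) and 7 SCARNA genes. The values that chose them were totals over all groups. Just inside the limit lay SNORA80B with 60 counts, SNORA74C-1 with 61 and SNORA73 with 63, and just outside it SNORA38 with 59, SNORA37 with 58 and SNORA80C with 57.

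All libraries came from 1 ARID1A-knockout 293T line (human embryonic kidney cells, named 12KO in the series), so every group, controls included, carries the knockout. ARID1A is a subunit of the SWI/SNF chromatin remodelling complex, and EWS-FLI1 is the fusion transcription factor of Ewing sarcoma. The first construct was an empty vector, wild-type ARID1A (WT) or ARID1A without the region IDR1b (ΔIDR1b). The second was an empty vector or EWS-FLI1, for which the labels give 2 µg of plasmid and growth for 48 h after transfection. The 6 groups, with 2 libraries each, were thus knockout cells with both empty vectors, knockout cells with EWS-FLI1, WT with the empty vector, WT with EWS-FLI1, ΔIDR1b with the empty vector, and ΔIDR1b together with EWS-FLI1. The groups that received the empty vector in place of ARID1A are called "no ARID1A" below. Nothing in the labels says whether the 2 libraries of a group came from separate cultures, so each p-value measures only the spread between these samples, which may be technical. In bulk RNA, fewer cells with a transcript and less of it per cell cannot be told apart.

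C/D snoRNAs guide 2′-O-methylation and H/ACA snoRNAs guide pseudouridylation of ribosomal RNA, and scaRNAs do the same for spliceosomal RNAs in Cajal bodies. Most human members lie inside introns of other genes, called hosts, and are released when the host is spliced and its intron debranched and trimmed. The mature RNAs carry no polyA tail and are bound by core proteins, among them fibrillarin (FBL) on C/D RNAs and dyskerin (DKC1) on H/ACA RNAs.

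The libraries were made from RNA enriched on oligo(dT) beads, and cDNA fragments of 370 to 420 bp were preferred. Of the 73 members annotated at a single locus, 72 are shorter than 370 bases, so a selected fragment that touches them is longer than the member itself. A fragment was counted once it overlapped the annotated snoRNA and no other gene's exon, and counting did not use the strand. A member's count can therefore hold mature RNA, unspliced host RNA or a retained intron, and the files do not tell these apart. A host lies around 76 of the 80 members on the same strand, and the 72 members assigned 1 host (called a single host below) share 57 host genes. Where several genes span a locus on the same strand, the one with the most counts was taken as host. SNORA73B, SNORA74A, SNORA74D, SNORA74C-2, SNORD117 and SNORD17 each lie within 2 such genes, so their host is uncertain. For 67 members with host exons around them, the median distance to the nearest host exon was 105 bases, and the median gap between the flanking exons was 1313.5 bases. SNORA66 also lies within DIPK1A on the opposite strand, and reads from the 2 strands cannot be told apart. Members that share bases with exons of other genes (10) or that join loci on several chromosomes (5, among them SNORA70 with 27 loci) are uncertain.

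The sequences of 2 abundant members that fell in each comparison between ARID1A states are given first, to show the annotated genes. The counted fragments overlapped these genes, and whether they came from the mature RNAs is not known. They are from GENCODE release 29 (GRCh38), written 5′ to 3′ as DNA. Both are H/ACA RNAs, and capitals mark the ACA near the 3′ end. In the C/D RNAs shown further on, capitals mark box C (TGATGA) and box D (CTGA). SNORA66 lies at chr1:92840719-92840851 (plus strand) in an intron of RPL5, and SNORA73B (a copy of U17) at chr1:28508559-28508762 (plus strand) within RCC1.
SNORA66: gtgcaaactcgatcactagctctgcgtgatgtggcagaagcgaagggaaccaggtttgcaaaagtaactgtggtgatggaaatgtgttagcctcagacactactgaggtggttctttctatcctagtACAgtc
SNORA73B: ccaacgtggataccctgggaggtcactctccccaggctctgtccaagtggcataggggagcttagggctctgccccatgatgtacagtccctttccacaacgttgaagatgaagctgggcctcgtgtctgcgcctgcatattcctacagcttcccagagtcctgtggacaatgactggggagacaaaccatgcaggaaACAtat
Among members with a GENCODE sequence, 24 of 33 C/D members (72.7%) held TGATGA within the first 20 bases and 29 of 33 (87.9%) had CTGA near the 3′ end, against 67.0% and 92.0% of all 288 SNORD transcripts of that release. The ACA was found in 30 of 33 H/ACA members (90.9%) and in 89.9% of the 149 SNORA transcripts. The members thus carried the boxes about as often as their families.

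Library totals ran from 11702251 to 14445379 counts, and members took between 0.00481% and 0.0271% of them. A floor of 3 counts corresponds to between 0.209 and 0.259 counts per 1000000 (CPM). ARID1A transcripts stood at 156.0 ± 12.1 CPM (SD, n = 2) without added ARID1A, 2056 ± 25.8 with WT and 2787 ± 130 with ΔIDR1b under the empty vector. With EWS-FLI1 they stood at 159.8 ± 3.68, 2067 ± 317 and 2615 ± 9.03 CPM. The added constructs thus match the labels, and a count over the whole gene does not show whether the transcript left in the knockout cells encodes protein. FLI1 reached at most 0.146 CPM with the empty vector and at least 1688 CPM with EWS-FLI1. With EWS-FLI1 it stood at 1759 ± 100 CPM without ARID1A, 3568 ± 151 with WT and 1897 ± 13.2 with ΔIDR1b. In comparisons with WT under EWS-FLI1, the ARID1A state and the level of the fusion thus cannot be told apart. Of the markers of other cells examined, PTPRC, CD3E, PECAM1 and COL1A2 had at most 3 counts in any library, while EPCAM had 39 to 80 counts, LUM 2 to 35 and ALB 3 to 12. The HEK-293 markers VIM (at least 423 CPM), KRT8, NEFL and PAX2 (at least 7.86 CPM) were present in every library, and NEFM had at most 1 count.

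The members' summed level was highest without ARID1A, lower with WT and lowest with ΔIDR1b. With the empty vector the sum was 249.3 ± 8.86 CPM (SD, n = 2) without ARID1A, 142.6 ± 11.6 with WT and 51.43 ± 0.463 with ΔIDR1b. With EWS-FLI1 the sums were 263.2 ± 15.2, 118.8 ± 23.8 and 47.07 ± 1.69 CPM. No library of one ARID1A state overlapped one of another state, in either vector. The level without ARID1A was 1.75 times (empty vector) and 2.22 times (EWS-FLI1) that with WT, and 4.85 and 5.59 times that with ΔIDR1b. The level with WT was 2.77 and 2.52 times that with ΔIDR1b. These sums are not carried by a single gene: without SNORA66, the most abundant member, the ratios of no ARID1A to ΔIDR1b were 4.48 and 5.08.

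Each of the 3 classes kept this order in sum. C/D members stood at 124.8 ± 9.28 CPM (SD, n = 2) without ARID1A, 78.28 ± 1.60 with WT and 26.07 ± 1.69 with ΔIDR1b under the empty vector. H/ACA members stood at 110.7 ± 2.15, 57.82 ± 7.28 and 23.29 ± 2.44 CPM in the same order. The scaRNAs stood at 13.79 ± 1.73, 6.527 ± 2.71 and 2.062 ± 0.288 CPM. With EWS-FLI1, C/D members stood at 136.2 ± 0.584, 63.15 ± 14.3 and 24.89 ± 1.27 CPM, H/ACA members at 115.9 ± 14.4, 50.06 ± 9.79 and 19.9 ± 2.19, and scaRNAs at 11.15 ± 1.35, 5.628 ± 0.295 and 2.284 ± 0.773.

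Member by member, the order of the means was no ARID1A above WT above ΔIDR1b for 57 of the 80 (71.2%) with the empty vector and for 67 (83.8%) with EWS-FLI1, where 22.5% and 24.2% of all 20377 genes tested had that order. Every library followed it, without overlap, for 28 and 34 of the 80 members, against 8.62% and 8.7% of all genes. For 21 members (26.2%, against 4.43% of all genes) every library followed it with both vectors, among them SNORA66 and SNORA73B. The heat map of single members shows the same steps, with blue in most rows of the 4 ΔIDR1b libraries and mixed colours in the WT libraries. The totals that chose the 80 include the libraries without ARID1A. In the 8 libraries with WT or ΔIDR1b, 15 members were below the pro rata total of 40. Such members stand high without ARID1A by the choice itself, so these shares and the sums describe the 80 and are not support for the order. The 80 also include 5 members that were not tested.

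**Figure D1:**
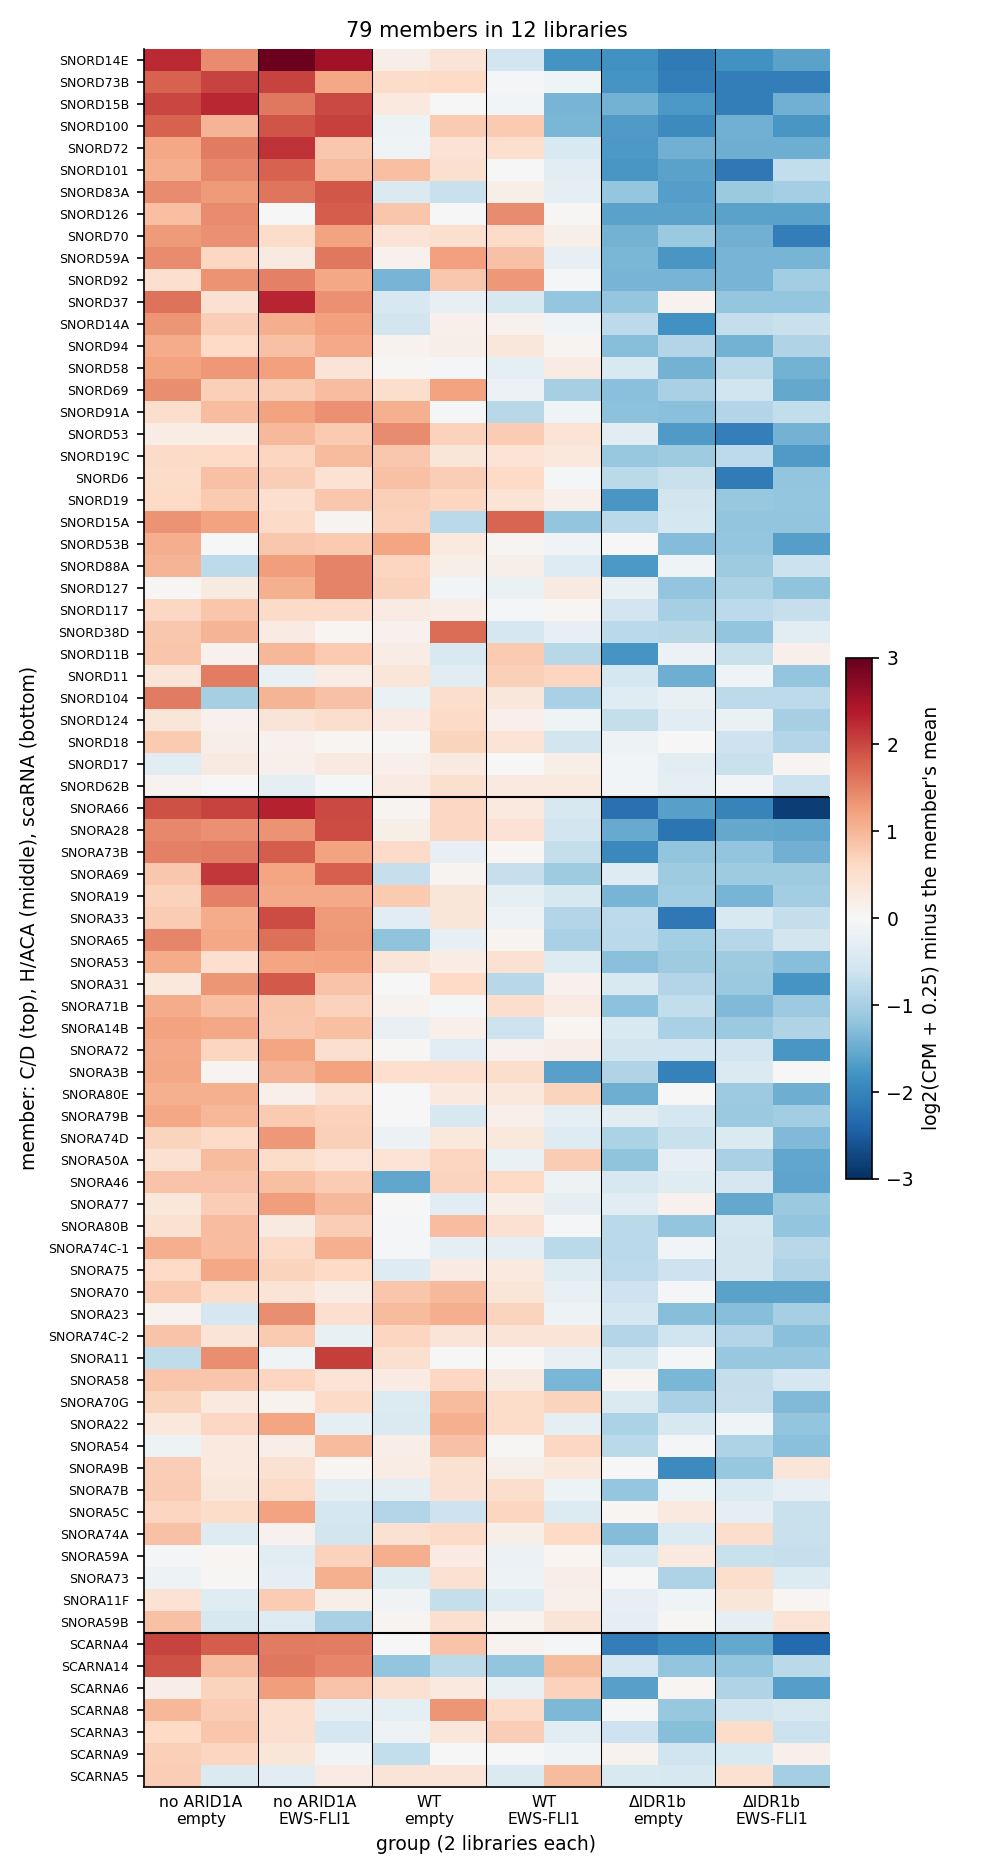
Colour gives log2(CPM + 0.25) minus the member's own mean over the 12 libraries, for 79 of the 80 members (rows, by class and by size of difference) in the 6 groups (columns, 2 libraries each). Red marks levels above the member's mean; the first 4 columns are mostly red and the last 4 mostly blue, and rows such as SNORD17, SNORD62B and SNORA59B stay pale.

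Each gene was then tested in 1 fit of all genes by edgeR's quasi-likelihood test with Benjamini-Hochberg adjustment, and a gene is called where its adjusted p is under 0.05. Of the 80 members, 75 had enough counts to be tested, and SCARNA3, SNORA74A, SNORA73, SNORA70G and SNORA59B did not. Of the 75, 22 reached the count minimum in fewer than 2 of the 8 libraries with WT or ΔIDR1b. Such members could pass only with the help of libraries without ARID1A. The calls in each comparison are therefore also given for the 53 that reached it in at least 2 libraries with WT or ΔIDR1b. Subsets of members are described over those 53. Comparisons within 1 vector share libraries: both WT and ΔIDR1b are set against the same libraries without ARID1A.

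WT ARID1A against no ARID1A asks what restoring the full protein changes. With the empty vector 15 of 75 members were called, all of them lower, with a median log2 change over the 75 of -0.73. This count was 6 without replicate 1 of no ARID1A or without replicate 1 of WT, and 8 without replicate 2 of WT. Over all genes 11.7% were called and 5.19% were called lower, with a median of -0.01. With EWS-FLI1 20 members were called, all lower, with a median of -0.88, where 18.1% of all genes were called and 8.36% were called lower. Of the 53 members, 13 and 17 were called, with medians of -0.76 and -0.82. Libraries did not overlap, with WT lower, for 39 of 80 members with the empty vector and for 49 in the EWS-FLI1 libraries (28.6% and 28.2% of all genes tested did so). With WT higher they did not overlap for 5 and 4 members (27.7% and 26.6% of all genes), and none of these was called. As the totals that chose the 80 include the libraries without ARID1A, these counts over the 80 are description only.

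ΔIDR1b against no ARID1A had the lowest medians of the 3 comparisons. With the empty vector 43 of 75 members were called, all lower, with a median of -2.15, beside 33.3% of all genes called and 16.8% called lower. With EWS-FLI1 56 were called, all lower, with a median of -2.70, beside 35.9% of all genes called and 17.9% called lower. Members with more than 3 counts in the 2 ΔIDR1b libraries numbered 59 and 55, and their fitted changes were all below 0 (from -4.78 to -0.05 and from -5.63 to -0.13). Of the 53 members, 35 and 42 were called. The libraries with each vector are separate, and 39 members were called in both. This is 90.7% of the calls with the empty vector and 69.6% of those with EWS-FLI1. The share of all genes called in both was not computed, so this overlap is not shown to be particular to the members. Libraries did not overlap, with ΔIDR1b lower, for 71 of 80 members with the empty vector and for 67 with EWS-FLI1 (34.4% and 34.2% of all genes tested). The 80 include members that met the limit only with the libraries without ARID1A, and members that were not tested.

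ΔIDR1b against WT compares the truncated with the full protein. ARID1A transcripts were also higher with ΔIDR1b than with WT in both vectors, so the deletion and the construct's level cannot be told apart. With the empty vector 34 of 75 members were called, all lower, with a median of -1.47, beside 24.5% of all genes called and 13.4% called lower. This count was 22 without replicate 1 or replicate 2 of WT and 20 without replicate 2 of ΔIDR1b. With EWS-FLI1 26 were called, all lower, with a median of -1.66, beside 18.6% of all genes called and 10.1% called lower. Of the 53 members, 31 and 24 were called. Libraries did not overlap, with ΔIDR1b lower, for 62 and 53 of 80 members (32.1% and 26.6% of all genes). The count with EWS-FLI1 fell to 11 when only those 2 groups were fitted, to 17 without replicate 1 of WT, and to 12 and 14 without replicates 1 and 2 of ΔIDR1b.

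Over the 53 members and by class, ΔIDR1b against no ARID1A with the empty vector called 22 of 28 C/D members (median -2.79), 12 of 21 H/ACA members (median -1.65) and 1 of 4 scaRNAs (median -1.57), where 33.3% of all genes were called. With EWS-FLI1 it called 24, 16 and 2, with medians of -2.87, -2.19 and -2.15, where 35.9% of all genes were called. By abundance, 20 and 21 of the 23 members with a total of at least 300 counts were called, and 4 and 7 of the 12 with totals under 150. The medians were -2.42 and -2.26 for the former and -1.61 and -2.92 for the latter. Whether classes or abundance ranges differ was not tested.

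SNORA66, an H/ACA RNA that guides pseudouridylation of ribosomal RNA, was the most abundant member per annotated length, at 9.13 CPM per 100 bases on average. It had 336 and 361 counts in the libraries without ARID1A and the empty vector, 385 and 302 with EWS-FLI1, 93 and 136 with WT, 106 and 60 with WT and EWS-FLI1, 16 and 27 with ΔIDR1b and 20 and 10 with ΔIDR1b and EWS-FLI1. All 4 libraries without ARID1A were above all 4 with WT, and these above all 4 with ΔIDR1b. Its level fell from 25.99 ± 1.43 CPM (SD, n = 2) to 8.539 ± 2.29 with WT, a log2 change of -1.60 ± 0.23 (SE; adjusted p = 1.15e-05, edgeR). With ΔIDR1b it was 1.55 ± 0.538 CPM, a log2 change of -4.06 ± 0.29 (SE; adjusted p = 6.77e-13, edgeR) from no ARID1A, or a 16.6-fold lower level. With EWS-FLI1 the changes were -2.23 ± 0.24 with WT and -4.79 ± 0.31 with ΔIDR1b (SE; adjusted p = 3.32e-08 and 3.76e-14, edgeR). Its host RPL5, a large-subunit ribosomal protein gene, changed by -0.62 with ΔIDR1b (empty vector) and stood at 1972 ± 68.4, 1879 ± 88.0 and 1283 ± 45.0 CPM in the 3 states.

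SNORA73B, an H/ACA snoRNA involved in ribosomal RNA precursor cleavage, had 160 and 164 counts without ARID1A, 82 and 45 with WT and 12 and 23 with ΔIDR1b under the empty vector. With EWS-FLI1 it had 175 and 112, 56 and 31, and 23 and 19 counts. The states again did not overlap within a vector. It changed by -3.25 ± 0.35 and -3.05 ± 0.34 (SE; adjusted p = 8.09e-09 and 1.52e-08, edgeR) with ΔIDR1b against no ARID1A. SNORA73B lies within 2 genes on its strand. RCC1, the one with more counts, changed by 0.04 and 0.15 (adjusted p = 0.817 and 0.288, edgeR). The other gene was not compared, so whether SNORA73B moved apart from its host is not shown. RCC1 is the nucleotide exchange factor of the GTPase Ran.

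SNORD14A and SNORD14E are copies of U14, a C/D snoRNA that is needed for small-subunit ribosomal RNA processing as well as methylation. They lie in different hosts, SNORD14A at chr11:17074654-17074744 (minus strand) in RPS13 and SNORD14E at chr11:123058077-123058161 (minus strand) in HSPA8, which encodes a constitutive heat shock protein. Their sequences, with boxes C and D in capitals, show how alike they are:
SNORD14A: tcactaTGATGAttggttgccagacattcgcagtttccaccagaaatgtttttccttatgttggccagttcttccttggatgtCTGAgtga
SNORD14E: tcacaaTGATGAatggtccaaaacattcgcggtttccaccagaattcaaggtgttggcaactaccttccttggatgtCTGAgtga
The pair matched at 71 of 92 aligned positions (77.2%), and fragments that mapped to several places were not counted. SNORD14A had 152 and 99 counts without ARID1A, 39 and 65 with WT and 33 and 15 with ΔIDR1b under the empty vector, and 113 and 123, 64 and 53, and 36 and 38 with EWS-FLI1. SNORD14E had 85 and 46, 18 and 21, and 2 and 1 counts under the empty vector, and 123 and 90, 9 and 2, and 2 and 3 with EWS-FLI1. Both were lower in every ΔIDR1b library than in any library without ARID1A, and SNORD14E was near the floor there. For SNORD14A the log2 changes with ΔIDR1b were -2.42 (SE 0.335) and -1.96 (SE 0.32), with adjusted p of 8.24e-07 and 9.16e-06 by edgeR. For SNORD14E, which kept 3 counts in the ΔIDR1b libraries with the empty vector, the ratio of no ARID1A to ΔIDR1b was 45.0 with a 95% counting interval of 15.1 to 221, and with EWS-FLI1 the log2 change was -5.63 ± 0.57 (SE; adjusted p = 1.53e-09, edgeR). RPS13 changed by -0.66 and -0.63 and HSPA8 by -0.35 and -0.76 in the same comparisons. The other U14 copies and the processing snoRNA genes SNORA73A and SNORD118 had 0 counts, and of the U3 genes SNORD3A had 45 counts over the 12 libraries.

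Ribosomal protein genes hold 14 of the tested members, in 11 hosts. Of the 11 of these members that are among the 53, 6 and 10 were called with WT, 11 and 10 with ΔIDR1b against no ARID1A, and 10 and 6 with ΔIDR1b against WT (empty vector, then EWS-FLI1), where 11.7%, 18.1%, 33.3%, 35.9%, 24.5% and 18.6% of all genes were called. Their median log2 changes were -1.30, -1.86, -3.96, -3.86, -2.84 and -2.03 in that order. Of the 38 in other single hosts, 6, 7, 22, 29, 20 and 17 were called, with medians of -0.42, -0.65, -1.74, -2.39, -1.56 and -1.68. Whether the 2 sets differ was not tested. The 11 host genes themselves were all called lower with ΔIDR1b against no ARID1A, with medians of -0.69 and -0.64, and 0 of them (empty vector) and 2 (EWS-FLI1) were called with WT, with medians of -0.05 and -0.22. Among these members, SNORD15B in RPS3 had 54 and 64 counts without ARID1A, 14 and 11 with WT and 2 and 1 with ΔIDR1b under the empty vector, and SNORD73B in RPS3A had 58 and 70, 23 and 24, and 2 and 1. For SNORD73B the ratio of no ARID1A to ΔIDR1b was 44.0 with a counting interval of 14.7 to 216. SNORD83A in RPL3 fell at the first step, from 121 and 109 counts without ARID1A to 31 and 26 with WT, a log2 change of -2.01 ± 0.31 (SE; adjusted p = 2.92e-05, edgeR). SNORA65 in RPL12 had 37 and 29 counts without ARID1A and 3 and 9 with WT, a log2 change of -2.43 ± 0.66 (SE; adjusted p = 0.0134, edgeR). It is not among the 53, as it reached the count minimum in fewer than 2 libraries with WT or ΔIDR1b. It thus passed only with the help of libraries without ARID1A, where it is high, and its fall is given as description only.

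RPS12, a small-subunit ribosomal protein gene, holds 3 members in its introns, and they share 1 host. SNORD101 lies at chr6:132815307-132815379, SNORD100 at chr6:132816802-132816877 and SNORA33 at chr6:132817219-132817348, all on the plus strand. They show members of both classes within 1 host, with boxes in capitals:
SNORD101: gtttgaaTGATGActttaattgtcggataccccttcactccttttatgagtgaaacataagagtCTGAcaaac
SNORD100: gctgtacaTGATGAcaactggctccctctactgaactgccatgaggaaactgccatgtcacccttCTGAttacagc
SNORA33: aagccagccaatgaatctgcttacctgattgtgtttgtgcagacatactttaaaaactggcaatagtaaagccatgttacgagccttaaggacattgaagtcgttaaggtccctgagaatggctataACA
With the empty vector SNORD101 had 55 and 71 counts without ARID1A, 48 and 35 with WT and 5 and 6 with ΔIDR1b. SNORD100 had 89 and 51, 21 and 43, and 5 and 4, and SNORA33 had 58 and 75, 25 and 43, and 18 and 5. Each was lower in both ΔIDR1b libraries than in any other library of that vector. Against no ARID1A, ΔIDR1b changed SNORD101 by -3.53, SNORD100 by -3.96 and SNORA33 by -2.56 on the log2 scale, and RPS12 by -0.69. With EWS-FLI1 the changes were -3.10, -4.16 and -2.41, beside -0.62 for RPS12.

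Among members outside ribosomal protein genes, SNORA28 in EIF5 moved against its host. EIF5 encodes a translation initiation factor and stood at 197.9 ± 10.6 CPM without ARID1A and 256.2 ± 21.8 with ΔIDR1b under the empty vector, a log2 change of 0.37 ± 0.11 (SE; adjusted p = 0.0101, edgeR). SNORA28 had 38 and 36 counts without ARID1A, 14 and 20 with WT and 2 and 0 with ΔIDR1b, and the ratio of no ARID1A to ΔIDR1b was 38.2 with a counting interval of 10.2 to 321. SCARNA4, a guide for spliceosomal RNA that lies within KHDC4, had 104 and 89, 23 and 44, and 3 and 4 counts, and changed by -3.26 ± 0.55 (SE; adjusted p = 4.17e-05, edgeR) with ΔIDR1b against WT. SNORD126 in CCNB1IP1 had 0 counts in all 4 ΔIDR1b libraries, 16 and 24 without ARID1A and 15 and 7 with WT under the empty vector. It was at least 13.8-fold lower with ΔIDR1b than without ARID1A, taking 3 counts over the group as the floor. It was named for its zeros after its values were seen.

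SNORD94 in PTCD3, a C/D RNA that guides modification of spliceosomal RNA, had 164 and 114 counts without ARID1A, 80 and 84 with WT and 29 and 40 with ΔIDR1b under the empty vector, a log2 change of -2.05 ± 0.28 (SE; adjusted p = 6.51e-07, edgeR) for ΔIDR1b against no ARID1A. SNORA71B in SNHG17, a noncoding host gene, had 160 and 135, 77 and 68, and 29 and 43 counts. It changed by -2.08, beside -1.88 for SNHG17 itself, so that member and host moved by nearly the same amount in that comparison. They did not with WT against no ARID1A under EWS-FLI1. There SNORA71B changed by -0.38 (adjusted p = 0.302, edgeR), while SNHG17 went from 276.5 ± 6.0 to 138.2 ± 3.04 CPM (SD, n = 2). SNORD6 in TAF1D and SNORD70 in NOP58 were among the members with the largest called falls from WT to ΔIDR1b under EWS-FLI1. SNORD6 was lower with ΔIDR1b and EWS-FLI1 (3 and 9 counts) than with WT and EWS-FLI1 (37 and 22), a log2 change of -2.38 ± 0.54 (SE; adjusted p = 0.00216, edgeR). SNORD70 was lower in the same comparison, with 5 and 2 against 29 and 21 counts.

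SNORD17 is the exception among the most abundant members. It lies at chr20:17962710-17962946 (minus strand) within SNX5, a sorting nexin gene, and is shown because it is the longest C/D member described here and was called in no comparison:
SNORD17: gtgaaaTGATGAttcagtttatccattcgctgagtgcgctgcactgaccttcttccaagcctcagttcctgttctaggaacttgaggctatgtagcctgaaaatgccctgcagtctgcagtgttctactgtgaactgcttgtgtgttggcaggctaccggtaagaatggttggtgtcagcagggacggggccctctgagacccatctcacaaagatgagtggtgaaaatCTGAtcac
It had 60 and 92 counts without ARID1A, 85 and 92 with WT and 72 and 62 with ΔIDR1b under the empty vector, and 74 and 79, 74 and 85, and 49 and 86 with EWS-FLI1. With the empty vector both ΔIDR1b libraries lay below both WT libraries in CPM, and with EWS-FLI1 both lay below both libraries without ARID1A, while the other pairs of groups overlapped. Its log2 change with ΔIDR1b was -0.23 ± 0.28 (SE; adjusted p = 0.579, edgeR) with the empty vector and -0.47 ± 0.28 (SE; adjusted p = 0.200, edgeR) with EWS-FLI1. SNX5, the one with more counts of 2 genes around SNORD17, fell by 0.73 and 0.69. SNORD62B in PRRC2B, named after its values were seen, was not called either, with 39 and 35, 43 and 51, and 34 and 30 counts under the empty vector and a change of -0.25 (SE 0.38). In all, 15 of the 75 tested members were called in none of the 6 comparisons between states, among them SNORD17, SNORD62B, SNORA11F, SCARNA8 and SCARNA9. The matching share of all genes was not computed.

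Members were set beside their hosts, for the 69 tested members with a single tested host (55 hosts). These include the tested members that lie within several genes, for which only the gene with the most counts was compared. The member's log2 change lay below the host's for 57 and 59 of 69 with WT against no ARID1A, for 67 and 67 with ΔIDR1b against no ARID1A, and for 61 and 65 with ΔIDR1b against WT (empty vector, then EWS-FLI1). The median difference, member minus host, was -0.77 and -1.07, -1.87 and -2.48, and -1.14 and -1.21. Of the 49 such members among the 53, the change lay below the host's for 41 and 44, 48 and 47, and 46 and 45, with median differences of -0.77 and -1.01, -1.86 and -2.42, and -1.20 and -1.11. The host genes had medians of 0.03 and 0.00 with WT and of -0.42 and -0.39 with ΔIDR1b against no ARID1A. With ΔIDR1b, 33 and 29 of 55 were called lower and 7 and 9 higher, where 16.8% and 17.9% of all genes were called lower. In sum the hosts stood at 32970 ± 836 CPM (SD, n = 2) without ARID1A and 24490 ± 322 with ΔIDR1b under the empty vector, a ratio of 1.35 beside 4.85 for the members. Across the 69 members, the changes of member and host were weakly related, with Pearson's r between 0.052 and 0.200 over the 6 comparisons. Members in 1 host share its value, and low counts add scatter. In ΔIDR1b against no ARID1A with EWS-FLI1, 6 members were called lower while their host was called higher, among them SNORA28 and SNORA46 and SNORA50A in CNOT1.

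Of the 53 members, 46 in a single host were also split by their distance to the nearest host exon, with no test. With ΔIDR1b against no ARID1A and the empty vector, the median log2 change was -2.50 for the 21 members less than 100 bases from a host exon, -2.56 for 11 at 100 to under 300 bases and -1.85 for 14 at 300 bases or more. With EWS-FLI1 the medians were -3.01, -2.64 and -2.62.

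Other short or intronic genes also had medians below 0 with ΔIDR1b against no ARID1A, nearer to 0 than the members'. Of 48 tested short MIR genes (microRNA precursors), 3 and 7 were called lower with WT and 18 and 17 with ΔIDR1b against no ARID1A (1 and 0 higher), with medians of -1.43 and -1.13 for the last. Their summed level without ARID1A was 2.47 and 2.59 times that with ΔIDR1b. Of 34 noncoding genes annotated as sense intronic, 13 and 16 were called lower with ΔIDR1b (1 and 1 higher), with medians of -0.97 and -1.38. Of 384 other genes of under 300 annotated bases, 93 and 103 were called lower (13 and 13 higher), with medians of -0.99 and -1.06. Over all genes tested, 5.19% and 8.36% were called lower with WT and 16.8% and 17.9% with ΔIDR1b against no ARID1A. MALAT1, a nuclear noncoding RNA, stood at 34.9 ± 4.15 CPM (SD, n = 2) without ARID1A, 17.71 ± 5.06 with WT and 4.244 ± 1.96 with ΔIDR1b under the empty vector, log2 changes of -0.98 and -3.04 (adjusted p = 0.00256 and 2.29e-11, edgeR). NEAT1, which scaffolds nuclear paraspeckles, changed by -0.93 and -1.23. KCNQ1OT1, another nuclear noncoding RNA, was not called with WT (-0.23 and -0.33) and was called lower with ΔIDR1b (-0.35 and -0.76). RN7SL1, the RNA of the signal recognition particle, was called in none of the 6 comparisons, with 0.10 and -0.07 for WT and -0.53 and -0.62 for ΔIDR1b against no ARID1A. These 4 were the tested genes of a list of 18 nonpolyadenylated or nuclear RNAs. The part of these RNAs in the members' result was not tested.

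EWS-FLI1 moved no member past the threshold. In sum the level with EWS-FLI1 was 1.06 times that with the empty vector without ARID1A, 0.833 times with WT and 0.915 times with ΔIDR1b. In each of the 3 states, in their average and in the 3 interactions, 0 of 75 members were called by edgeR or by DESeq2. Over all genes 0.0442%, 0.221% and 0.172% were called in the 3 states and 0.466% in the average, and 0.0245%, 0.0196% and 0% in the interactions. At an unadjusted p under 0.05, edgeR gave 1, 5, 4 and 4 members for the states and the average and 5, 5 and 3 for the interactions, and DESeq2 gave 1, 3, 4 and 3, and 4, 4 and 3. The median log2 change was 0.00, -0.34 and -0.07. The difference of the EWS-FLI1 effect between states was thus not detectable at this depth. FLI1 transcripts were also higher with WT than in the other states, and no fit adjusted for this. The lower value with WT came with 2 unequal libraries, at 135.6 and 102.0 CPM in sum. Leaving out replicate 1 of WT with EWS-FLI1 leaves 1 library in that group, which is then assumed to vary like the other groups. In that fit SNORD69 in GNL3 (-2.16, adjusted p = 0.0383) and SNORD14E (-3.18, adjusted p = 0.0465) were called by edgeR in that state, and SNORD14E in the interaction with no ARID1A (-4.09, adjusted p = 0.0236).

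Genes for the proteins that assemble and carry these RNAs had medians nearer to 0. Of 22 tested genes for core and assembly factors, with WT 3 were called in each vector (13.6%, beside 11.7% and 18.1% of all genes). NOLC1, a nucleolar chaperone of both RNA classes, rose by 0.37 and 0.50, and PARN, a ribonuclease that trims snoRNA 3′ ends, fell by 0.54 and 0.35. With the empty vector RUVBL2 rose by 0.41, and with EWS-FLI1 RUVBL1 rose by 0.38; both encode ATPases of the assembly complex. With ΔIDR1b against no ARID1A, 8 and 5 were called lower and 1 and 2 higher (40.9% and 31.8% called, beside 33.3% and 35.9% of all genes), with medians of -0.22 and -0.19. These shares lie near those of all genes. Lower in both vectors were FBL (-0.59 and -0.57), the C/D core protein gene SNU13 (-0.77 and -0.58), DKC1 (-0.39 and -0.26), the H/ACA assembly factor gene NAF1 (-0.56 and -0.60) and ZNHIT3 (-0.68 and -0.50). NOP56, NOP58 (itself the host of SNORD70) and PARN were called lower with the empty vector, and RUVBL1 (both vectors) and NOLC1 (EWS-FLI1) were higher.

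snoRNA genes that carry their own promoters, rather than lying in a host, had few counts. Of 9 such genes listed, 5 had any count, 73 in all, and SNORD3A had the most with 45. None reached the limit of 60. Of 122 snoRNA names from the imprinted clusters SNORD113 to SNORD116, 2 had a count, 8 in all.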

How the data were processed

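PolyA RNA from 12 libraries (6 groups of 2) was measured. Per the file headers, the authors deposited raw counts of fragments per gene name. These came from featureCounts 2.0.1, with exons taken from the GRCh38 annotation of GENCODE (release 41, assembly patch 13), paired ends with both ends aligned, unstranded, without fragments that mapped to several places or touched several genes. The submitters' processing notes also name STAR, SAMtools and edgeR, with versions not given in the sources used here. The authors applied no normalization to these counts.

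Groups were taken from the sample titles. Counts were fitted in R 4.3.3 with edgeR 4.0.16 (TMM factors, filterByExpr by group with a minimum of 10 counts, quasi-likelihood F test, 2-sided, 1 mean per group, all 12 libraries) on 20377 genes, in 13 contrasts, with Benjamini-Hochberg adjustment over all genes tested in each contrast. The common biological coefficient of variation was 10.1%. CPM use TMM-scaled library sizes. The members, lists and tests were chosen with earlier results of these data known, so no pattern here is independent support. Named members were up to 4 called members with the largest rise and fall per contrast between states (at least 1 CPM, no overlap of libraries), the 5 with the highest mean CPM and their hosts; members named otherwise are marked or fall under a list. Of the members this rule names, 1 is counted in every total but is not reported here by itself. Counting intervals are 95% and, like floors of 3 counts, cover counting error only. Counts were simulated for ΔIDR1b against no ARID1A with the empty vector (19169 genes). There edgeR called 75% of genes changed by a log2 of 1 and 98% of those changed by 2. It also called 10 of 18969 unchanged genes. These shares were not split by abundance or by spread between libraries. They thus do not give the power or the rate of false calls for scarce members. Alternatives were RLE and upper-quartile factors, no filter, DESeq2 1.42.0, only the groups compared, replicate blocks, each library left out, members of at least 300 counts and members without overlaps; RLE and upper-quartile factors for the summed CPM were added after seeing the data.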

Additional observations from a re-analysis of the deposited data

How the results depend on the processing

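No member was called higher under any alternative in the 6 comparisons between ARID1A states. With only members of at least 300 counts (23), fewer could be called: 13 with WT against no ARID1A (EWS-FLI1), 20 and 21 with ΔIDR1b against no ARID1A, and 17 and 14 with ΔIDR1b against WT. Fitting only the groups compared gave 11 calls in the EWS-FLI1 comparison of ΔIDR1b with WT. Leaving out 1 library at a time gave 6 to 17 and 14 to 21 calls with WT against no ARID1A (empty vector, then EWS-FLI1), 36 to 46 and 46 to 54 with ΔIDR1b against no ARID1A, and 20 to 35 and 12 to 26 with ΔIDR1b against WT. The counts moved by over 1.5 times for WT with the empty vector without replicate 1 of no ARID1A (6) and without replicates 1 and 2 of WT (6 and 8). In the same vector they did so for ΔIDR1b against WT without replicates 1 and 2 of WT (22 and 22) and replicate 2 of ΔIDR1b (20). With EWS-FLI1 they did so without replicate 1 of WT (17) and replicates 1 and 2 of ΔIDR1b (12 and 14). EWS-FLI1 against the empty vector gave 0 to 0, 0 to 2, 0 to 0 and 0 to 0 calls without ARID1A, with WT, with ΔIDR1b and on average, and the interactions 0 to 1, 0 to 0 and 0 to 0. SNORD17 ran from -0.058 (without replicate 1 of no ARID1A) to 0.566 (without replicate 2) with WT against no ARID1A, and from -0.505 to 0.118 for the same left-out libraries with ΔIDR1b, under the empty vector and uncalled in each case. The cause of its changes of sign was not tested.

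Of 987 values of named members under alternatives, 956 kept direction and side of the threshold, 28 fell short of it and 1 passed it (SNORD17, ΔIDR1b against no ARID1A with EWS-FLI1, -0.92 without replicate 2 of ΔIDR1b). Another 2 reversed direction. The labels do not say that equal replicate numbers share a batch. Over 12290 genes, deviations of equally numbered libraries correlated positively within a vector in 6 of 6 pairs of groups (0.0809 to 0.343) and negatively across vectors in 9 of 9 (-0.166 to -0.00637), so pairing within a vector is possible but is not shown. With the replicate number as a block over all groups the 6 counts were 15, 20, 44, 55, 34 and 25, and with a block within each vector 17, 20, 45, 54, 34 and 29, and no block called a member in the EWS-FLI1 contrasts or interactions. With TMM, RLE or upper-quartile factors, the median log2 change of all genes was at most 0.075 in size in every contrast. With 2 libraries a group and 20 of the 75 members at 3 counts or fewer in ΔIDR1b with EWS-FLI1, fold changes of scarce members are imprecise, and the medians with those at their bound were -2.15 and -2.68.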
